A study of Arabidopsis thaliana with 36 samples.

Results

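PME61 (locus AT3G59010, also named PME35) is a pectin methylesterase gene of Arabidopsis thaliana, and it is described here across all 12 groups of a seedling RNA-seq series. It is 1 of 33540 genes in the deposited tables, of which 28211 had a value above 0 in at least 1 library. It was chosen by its values: in earlier results of the same libraries it was far higher at 27 °C than at 22 °C in 2-day-old seedlings, and that rise was absent at 7 days. The changes of PME61 with temperature and with age, every difference between genotypes at 2 days and every difference between their responses to warmth draw on the values that chose it. They are therefore given as a description, with no test. The absence of a rise at 7 days was part of the choice as well. The 6 comparisons of genotypes at 1 temperature at 7 days were run through limma. For the same reason they are given as a description too, without p-values.

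Seedlings were of the ecotype Col-0 and were either wild type (WT), pif4-2 or hda9-1. They were raised on sterile agar plates in short days of 8 h light and 16 h dark, at 22 °C or at 27 °C from the end of stratification, and collected as whole seedlings when the lights came on, at an age of 2 or 7 days. Each of the 12 combinations of genotype, temperature and age has 3 libraries, and each library combines RNA from 3 separately harvested batches, so the spread given below is the spread between pools. Each mutant is represented by 1 allele, and RNA of whole seedlings does not separate organs: a change in the share of a cell type and a change of RNA per cell cannot be told apart in any result below. Values are normalised counts, which are the deposited read counts after the authors' division by 1 factor per library, and the libraries hold 21906850 to 67795235 reads in genes.

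Pectin methylesterases remove methyl groups from homogalacturonan, the main pectin of the primary wall. Where the freed acid groups are bridged by calcium the wall stiffens, and where pectin-degrading enzymes reach them it loosens. Inhibitor proteins of the same wall block the enzymes, and subtilisin-like proteases cut the inhibitory pro-region from the longer forms. PME61 itself has been described, under the name PME35, as acting on the walls of supporting tissue of the Arabidopsis inflorescence stem. PIF4 is a transcription factor that promotes elongation growth in warmth, and HDA9 is a histone deacetylase, an enzyme that removes acetyl groups from histones.

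In the RefSeq annotation of build TAIR10.1, PME61 lies on the minus strand of chromosome 3 at chr3:21802770-21805335. Exon 1 is 1162 bp long, the single intron 494 bp and exon 2 910 bp. The coding sequence begins in exon 1, ends in exon 2 and encodes 529 residues. No annotated neighbour overlaps it. The nearest, the F-box gene AT3G59000, ends 965 bp away on the opposite strand, and the nearest gene on the other side, AT3G59020, is 4902 bp away. The 250 bases before the annotated start of transcription (TAIR10.1, chr3:21805336-21805585, minus strand, 5′ to 3′) are shown because they adjoin the start of the gene whose level changes, and because motifs read by growth regulators were sought in them.
PME61 upstream window: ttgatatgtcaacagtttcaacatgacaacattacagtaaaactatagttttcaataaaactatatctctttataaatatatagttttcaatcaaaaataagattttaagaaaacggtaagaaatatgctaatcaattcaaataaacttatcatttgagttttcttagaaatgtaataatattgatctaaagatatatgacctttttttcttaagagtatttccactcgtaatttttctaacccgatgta
All letters are in lower case because none of the 3 motifs searched on both strands is present, so nothing is marked. These were the G-box CACGTG and the element CACATG, sequences known to be bound by PIF factors, and the auxin response element TGTCTC. No stretch of bases can match more than 1 of them. They occur in 6.49%, 11.1% and 10.95% of 27443 windows of the same length before other genes, respectively. None was found in 1000 bp before PME61 either, where 14.8%, 37.7% and 39.6% of genes hold a match. The search covers these letters in these windows only.

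The targeted genes were read first. In hda9-1 at 22 °C and 2 days HDA9 stood at 26.7 ± 0.831 normalised counts (SD, n = 3) where WT had 549.2 ± 37.9; by limma it was lower by -4.31 in log2 units (SE 0.09; adjusted p = 1.66e-14), and the other 3 comparisons gave -3.35, -3.15 and -2.70. For PIF4 the pif4-2 label was not borne out at 2 days: its log2 level differed from that in WT by 0.87 at 22 °C (SE 0.23; limma adjusted p = 0.437). At 27 °C the difference was -0.05 (SE 0.23; limma adjusted p = 0.9999). At 7 days PIF4 was lower, by -0.66 at 22 °C (SE 0.09; limma adjusted p = 5.54e-05). The 27 °C difference was -0.75 (SE 0.09; limma adjusted p = 5.05e-06). Reads counted over a whole gene need not fall in an insertion mutant, and the text therefore speaks of libraries labelled pif4-2. Some libraries stood apart in seedling markers. LHCB2.1, a light-harvesting protein of photosynthetic tissue, was at 26350 in the third WT library at 22 °C and 2 days against 18825 and 17973 in the others, and the third libraries labelled pif4-2 at 2 days and the third WT library at 27 °C were likewise the highest of their groups. The third hda9-1 libraries at 2 days were the highest of theirs too, at 45866 against 35038 and 45008 at 22 °C. At 27 °C the third hda9-1 library stood at 62076 against 46514 and 51249. At 7 days the third library labelled pif4-2 at 22 °C was the low one, at 69247 against 121827 and 122092. Read ratios and log2 differences of PME61 that use these WT and pif4-2 libraries are also given without them, as are the 2 family counts they move most. The third hda9-1 libraries were kept, so these fits set reduced WT and pif4-2 groups against all hda9-1 libraries. Of the results for other genes named below, 41 at 2 days and 37 at 7 days were refitted without these WT and pif4-2 libraries, and all of them kept their direction and their side of the threshold.

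At 2 days PME61 was close to absent at 22 °C in WT and in the libraries labelled pif4-2, was low but present in hda9-1, and was high at 27 °C in all 3 genotypes. The 3 WT libraries at 22 °C had 1.42, 0 and 3.03 normalised counts, from 2, 0 and 4 reads. A value of 0 in replicate 2 allows up to 3.16 normalised counts, the worth of 3 reads there. The libraries labelled pif4-2 at 22 °C had 0, 0.752 and 0, which is 1 read in all. The hda9-1 libraries at 22 °C had 10.98, 13.8 and 17.5, from 44 reads, so that the lowest of them lay above every WT and pif4-2 library of that temperature.

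At 27 °C the WT libraries had 86.7, 137.4 and 101.4 normalised counts. Those labelled pif4-2 had 103.1, 113.8 and 142.2. Those of hda9-1 had 119.2, 111.2 and 79.9. The 3 genotypes thus occupied one range at 27 °C, and every warm library lay above every cool one of its genotype. Such a gap between the groups was common among all genes at this age: 73.5%, 74.6% and 70.7% of 21164 genes showed one in WT, pif4-2 and hda9-1.

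**Figure D1:**
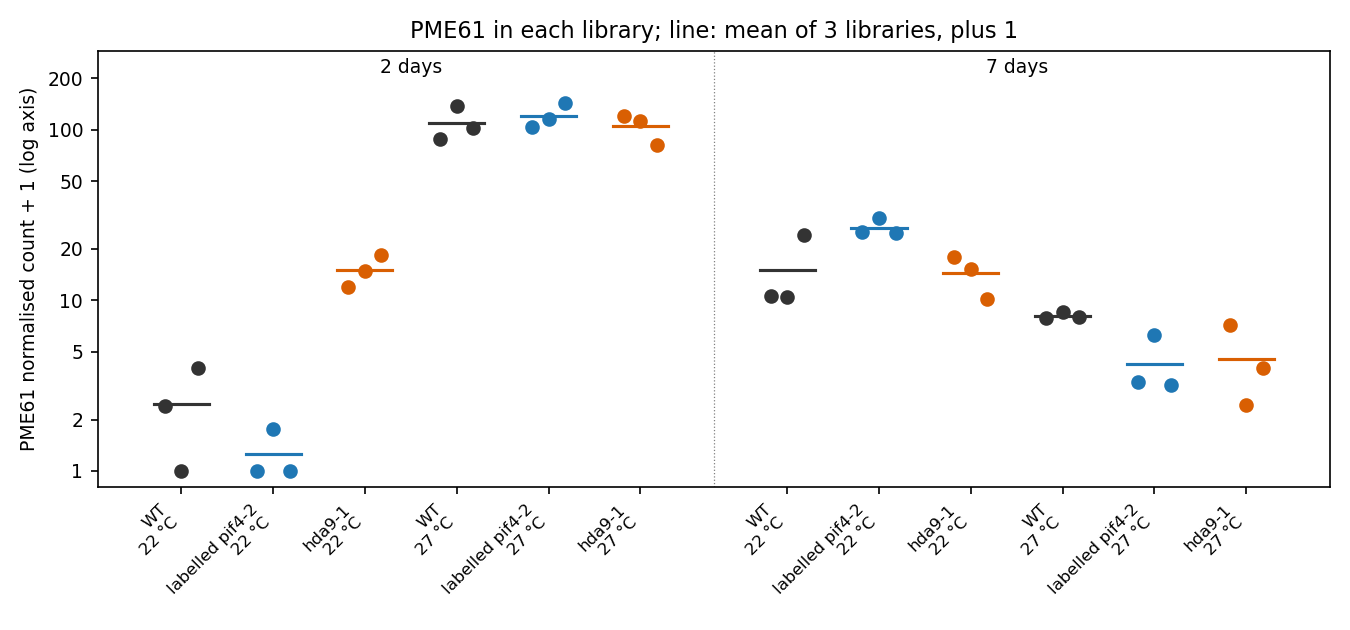
PME61 in each of the 36 libraries, as the normalised count plus 1 on a log axis, by genotype, temperature and age, with 3 points per group and a line at the group mean plus 1. At 2 days the 27 °C libraries of all genotypes sit between 79.9 and 142.2 normalised counts, while at 22 °C WT and pif4-2 stay at or below 3.03 and hda9-1 lies at 10.98 to 17.5; at 7 days every 27 °C library lies below every 22 °C library of its genotype.

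Because so few reads underlie the cool 2-day groups, the size of the rise is best read from reads summed over a group. In WT, 311 reads at 27 °C against 6 at 22 °C gave a ratio of 67.2 after scaling, with a 95% counting interval of 30.5 to 184.6. In the libraries labelled pif4-2, 479 reads against 1 gave 519, with an interval of 92.7 to 20550, which says little about the size beyond its lower end. In hda9-1, 301 against 44 reads gave 7.38 (5.37 to 10.4). These exact intervals cover counting error only, and reads without molecular identifiers need not be independent molecules. On the log2(value + 1) scale the rises were 5.65 (SE 0.39) in WT, 6.63 (SE 0.39) in pif4-2 and 2.79 (SE 0.39) in hda9-1; the first 2 depend on the pseudocount and become 3.61 and 3.94 with a pseudocount of 8. Without the third WT and pif4-2 libraries they were 6.15 and 6.37. The read ratios then became 135 in WT (36.9 to 1122, from 204 reads and 2) and 296 in pif4-2 (52.5 to 11727).

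At 7 days PME61 was low everywhere, and it was lower at 27 °C than at 22 °C. The WT libraries had 9.55, 9.44 and 23.0 normalised counts at 22 °C and 6.82, 7.56 and 6.98 at 27 °C. The libraries labelled pif4-2 had 24.0, 29.4 and 23.7 at 22 °C and 2.30, 5.28 and 2.18 at 27 °C. The hda9-1 libraries had 17.0, 14.2 and 9.21 at 22 °C and 6.16, 1.45 and 3.02 at 27 °C.

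In each genotype the warm and cool groups did not overlap at 7 days, which was again the case for most genes: 65.8%, 61.1% and 68.6% of 21320 in WT, pif4-2 and hda9-1. The scaled read ratio of 27 °C to 22 °C was 0.499 in WT (95% counting interval 0.275 to 0.898, from 23 and 28 reads), 0.113 in pif4-2 (0.0521 to 0.219, from 10 and 80 reads) and 0.298 in hda9-1 (0.147 to 0.565, from 13 and 43 reads). The log2 changes were -0.77 (SE 0.42), -2.72 (SE 0.42) and -1.77 (SE 0.42), and the 95% interval of the WT change ran from -1.65 to 0.12. Without the third WT library at 22 °C, the highest of its group, the WT change was -0.37. Without the third pif4-2 library at 22 °C, the pif4-2 change was -2.77 and its read ratio 0.11.

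With age, PME61 moved in opposite directions at the 2 temperatures in WT and pif4-2. At 22 °C the 7-day libraries were above the 2-day libraries, with ratios of 8.78 (3.57 to 25.9) in WT and 109 (18.9 to 4339) in pif4-2, the latter resting on 1 read at 2 days. In hda9-1 the 22 °C libraries of both ages overlapped, with a ratio of 0.961 (0.616 to 1.498). At 27 °C all 7-day libraries were below all 2-day libraries of their genotype: the scaled summed reads were 15.3-fold lower in WT (10.04 to 24.6), 42.4-fold lower in pif4-2 (22.8 to 89.0) and 25.8-fold lower in hda9-1 (14.8 to 48.9). Changes with age were common among all genes. Of 21879 genes, limma called 8337 higher and 8387 lower at 7 days in WT at 22 °C, and 7985 and 8405 in pif4-2. At 27 °C it called 7739 lower in WT, 7763 in pif4-2 and 7404 in hda9-1. Without the third WT and pif4-2 libraries at 2 days and the third pif4-2 library at 22 °C and 7 days, the 22 °C ratios were 16.9 in WT and 72.8 in pif4-2. The 27 °C falls were then 16.0-fold and 37.0-fold.

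Ordered by mean, the 12 groups ran from pif4-2 at 22 °C and 2 days (0.251 ± 0.434) through WT at 22 °C and 2 days (1.48 ± 1.52), pif4-2 at 27 °C and 7 days (3.25 ± 1.76) and hda9-1 at 27 °C and 7 days (3.54 ± 2.40) to WT at 27 °C and 7 days (7.12 ± 0.388; all SD, n = 3). Next came hda9-1 at 22 °C and 7 days (13.4 ± 3.92), WT at 22 °C and 7 days (13.99 ± 7.79), hda9-1 at 22 °C and 2 days (14.1 ± 3.25) and pif4-2 at 22 °C and 7 days (25.7 ± 3.21). The warm 2-day groups were highest, with 103.4 ± 20.8 in hda9-1, 108.5 ± 26.1 in WT and 119.7 ± 20.2 in pif4-2. Neighbours in this order overlapped within the first 4 groups, within the 3 groups near 14 and within the 3 warm 2-day groups, while the steps between these sets showed no overlap.

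At 22 °C and 2 days PME61 was higher in hda9-1 than in WT. The values given above, 10.98 to 17.5 against 0 to 3.03, differed by 2.80 on the log2(value + 1) scale (SE 0.39), and the scaled read ratio was 8.40 (95% counting interval 3.57 to 24.1, from 44 and 6 reads). Without the third WT and pif4-2 libraries the difference was 3.26 and the ratio 16.2 (4.22 to 137.7, from 44 and 2 reads). With a pseudocount of 8 the log2 difference was 1.22. Since a low level at 22 °C is part of the rise that chose the gene, this difference carries no test. Of all genes, 45.7% were called in this comparison by limma and 54.9% showed no overlap between the groups. At 27 °C the difference was -0.06 (SE 0.39), with a 95% interval of -0.89 to 0.77, and -0.098 without the third libraries; 29.4% of genes were called there.

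The rise in warmth at 2 days was smaller in hda9-1 than in WT, by -2.86 on the log2 scale (SE 0.55). Without each library in turn this difference lay between -3.32 and -2.31, and without the third WT and pif4-2 libraries it was -3.36. Against the libraries labelled pif4-2 the rise in hda9-1 differed by -3.84 (SE 0.55), or -3.58 without the third libraries. Of all genes, 2.71% and 2.26% were called in these comparisons. The levels behind both were those at 22 °C, where hda9-1 exceeded pif4-2 by 3.62 (SE 0.39; 43.8% of genes called), or by 3.49 without the third libraries. At 27 °C the hda9-1 and pif4-2 libraries differed by -0.22 (SE 0.39; 32.7% called), or by -0.087 without them.

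The libraries labelled pif4-2 and those of WT overlapped at both temperatures at 2 days. The log2 difference was -0.82 (SE 0.39) at 22 °C, where both groups were at or near the limit of detection, with 1 read against 6, and -0.23 without the third libraries. It was 0.15 (SE 0.39) at 27 °C, with a 95% interval of -0.68 to 0.98, and -0.01 without the third libraries. The rise in warmth differed by 0.98 (SE 0.55), or 0.22 without them. Few genes of any kind were called here: 0.184% at 22 °C, 0.184% at 27 °C and 0.0% for the difference of responses.

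At 7 days the 6 comparisons of genotypes at 1 temperature are described for PME61 without p-values. The 7-day values had a part in the choice of the gene. The differences from WT of the libraries labelled pif4-2 were 0.94 at 22 °C (SE 0.42) and -1.01 at 27 °C (SE 0.42). Without the third pif4-2 library the first was 0.99. For hda9-1 against WT they were 0.02 (SE 0.42) and -0.97 (SE 0.42). Between hda9-1 and pif4-2 they were -0.92 (SE 0.42), or -0.97 without that library, and 0.03 (SE 0.42). The responses to warmth, described with no test, differed by -1.95 (SE 0.60) between pif4-2 and WT, by -0.9996 (SE 0.60) between hda9-1 and WT and by 0.95 (SE 0.60) between hda9-1 and pif4-2. Without the third pif4-2 library the first was -2.003 and the last 1.003. For the 22 °C, 27 °C and response comparisons in turn, the shares of all genes called were 17.7%, 24.8% and 2.1% for pif4-2 against WT, 20.0%, 34.3% and 3.53% for hda9-1 against WT, and 31.9%, 29.5% and 0.347% for hda9-1 against pif4-2. Both 27 °C differences from WT moved without 1 library: that of pif4-2 to -1.33 without its second library and that of hda9-1 to -1.37 without its first. None of these 7-day values is read as an established difference between genotypes.

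**Figure D2:**
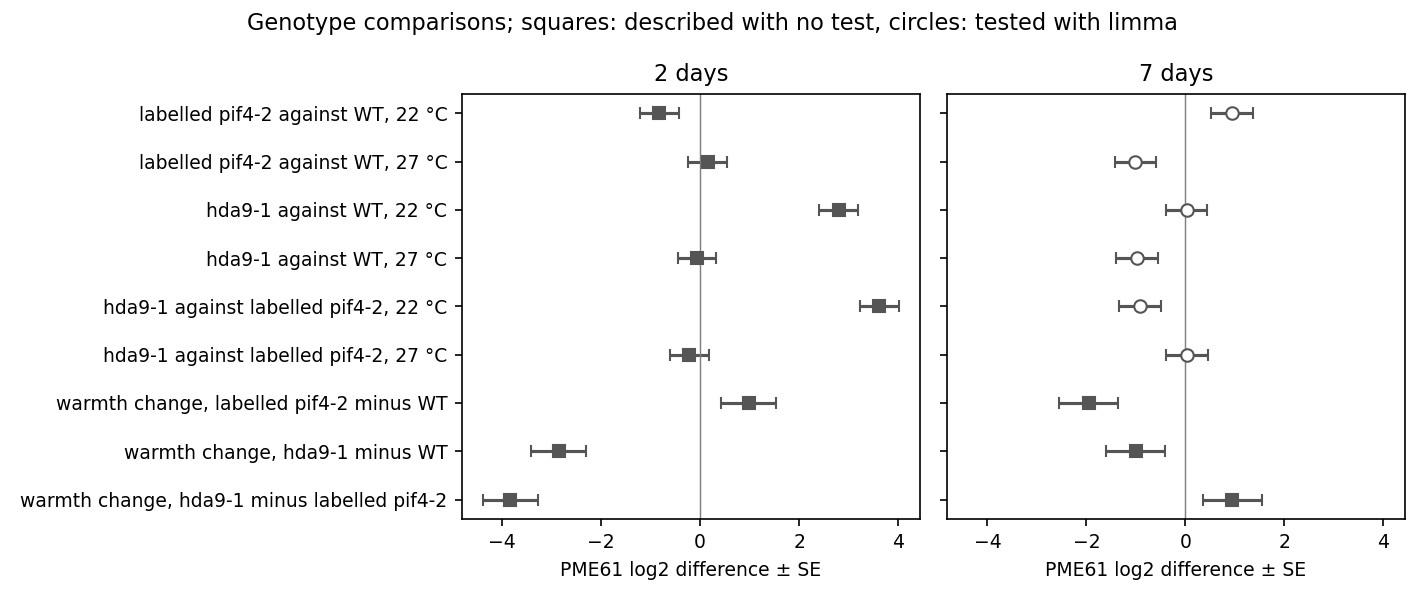
PME61 log2 differences between genotypes at each temperature and between their responses to warmth, at 2 days (left) and 7 days (right), with bars of 1 SE. Circles are the 6 comparisons at 1 temperature at 7 days, which were run through limma, and squares are the others. All are given as a description, because they draw on the values that chose the gene. At 2 days hda9-1 lies above WT (2.80) and above pif4-2 (3.62) at 22 °C and has a smaller response than WT (-2.86) and pif4-2 (-3.84).

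PME61 belongs to a large gene family, and the list used here holds 66 annotated pectin methylesterase genes with PME61 among them. Per kb of transcript PME61 stood 44th of the family in WT at 22 °C and 2 days, with 0.715 normalised counts per kb, and 28th at 27 °C, with 52.4 per kb. At 7 days it stood 38th at 22 °C (6.75 per kb) and 40th at 27 °C (3.44 per kb). Even at its highest in WT it made up 0.277% of the family's summed level per kb. The leading members in WT at 2 days and 22 °C were PME5, with 6077 per kb, and PMEPCRA, with 2501 per kb; at 27 °C they were PME1 (2350 per kb) and PME5 (2162 per kb).

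The protein closest to PME61 in the family is ATPMEPCRD (AT2G43050), with 71.5% identical residues, followed by AT2G45220 (PME17) with 48.9% and PME3 with 46.4%. ATPMEPCRD also had a warm rise at 2 days. Its WT libraries had 106.8, 96.8 and 145.4 normalised counts at 22 °C and 1024, 1374 and 1266 at 27 °C, a 10.5-fold rise (log2 3.39, SE 0.16, limma adjusted p = 1.91e-10). The 22 °C hda9-1 libraries lay between, at 225.5, 245.5 and 273.2, above WT by 1.10 on the log2 scale (SE 0.16, adjusted p = 0.000105), and the response in hda9-1 was smaller than in WT by -1.15 (SE 0.22, adjusted p = 0.0175). Without the third WT and pif4-2 libraries the WT rise was 3.53 and the difference of responses -1.29. Unlike PME61, ATPMEPCRD was again higher at 27 °C in WT at 7 days, at 855.9 ± 69.9 against 410.7 ± 9.02 normalised counts (log2 1.05, SE 0.09, adjusted p = 1.55e-08).

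PME17 followed the 2-day pattern at a smaller scale and a higher level. Its WT libraries had 1340, 1161 and 2176 normalised counts at 22 °C and 4104, 3070.6 and 3491 at 27 °C (log2 1.23, SE 0.21, limma adjusted p = 7.5e-05), or 1.51 without the third libraries. It was higher in hda9-1 than in WT at 22 °C by 0.66 (SE 0.21, adjusted p = 0.0187), and the difference of the responses was -0.89 (SE 0.30, adjusted p = 0.113). At 7 days it was lower at 27 °C in WT, by -0.44 (SE 0.14, adjusted p = 0.0107). Over the 12 group means of log2(value + 1), Pearson's r with PME61 was 0.83 for PME17 and 0.79 for ATPMEPCRD, the highest of the 60 family genes compared; 28 of the 60 had r above 0 and the median was -0.01. These 12 means share temperature, age and library scaling, and r is given as a description.

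**Figure D3:**
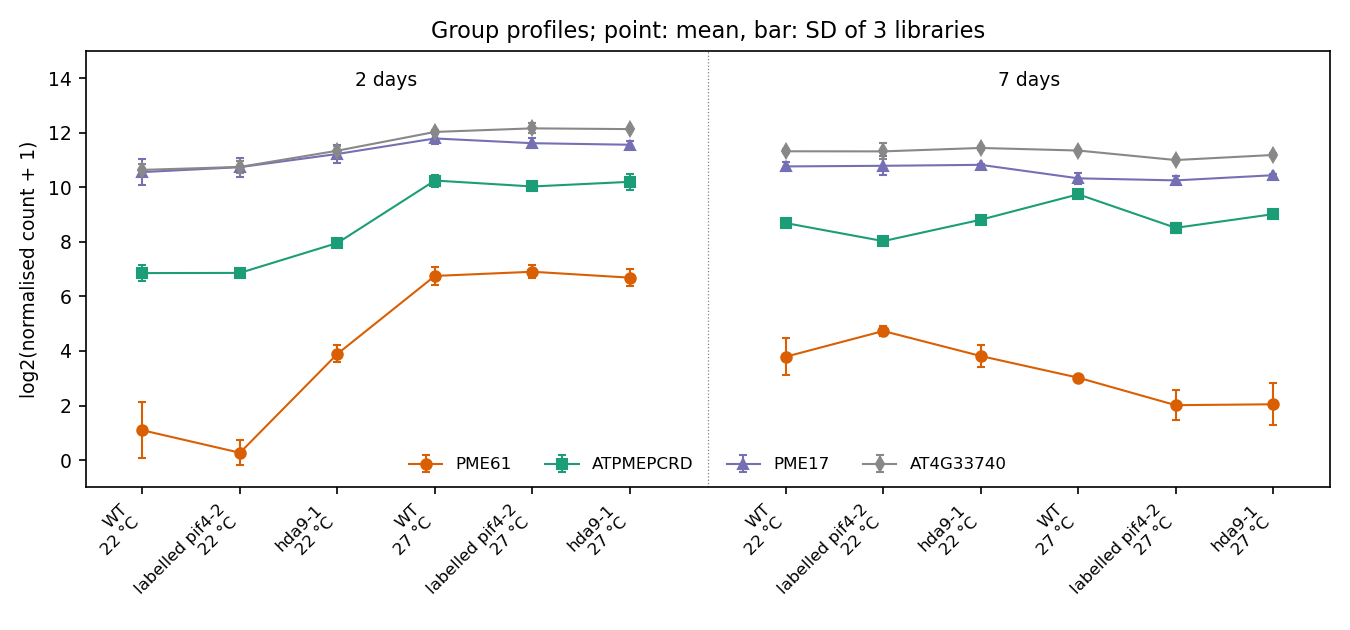
Group means of log2(normalised count + 1) for PME61, ATPMEPCRD, PME17 and AT4G33740 in the 12 groups, with bars of 1 SD over 3 libraries; lines join groups of the same age for reading only. All 4 genes step up from 22 °C WT to 27 °C at 2 days with hda9-1 at 22 °C in between, and PME61 spans 6.63 log2 units over the groups against 3.39 for ATPMEPCRD, 1.54 for PME17 and 1.52 for AT4G33740.

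Likeness was computed for 19535 genes whose highest group mean reached 50. The 10 most like PME61 over the 12 means were AT4G33740 (r = 0.96), CYP706A7 (0.96), AT5G58300 (0.96), AT3G02290 (0.96), AT4G09890 (0.94), AT5G42930 (0.94), SIB2 (0.94), AT2G37710 (0.93), AT3G59660 (0.93) and AT1G31935 (0.92), and 29 genes had r above 0.9. They are annotated as, among others, a myb-like protein (AT4G33740), a cytochrome P450 (CYP706A7), a leucine-rich repeat kinase (AT5G58300), a VQ-motif protein (SIB2) and a receptor lectin kinase (AT2G37710). Their own ranges were far smaller. AT4G33740 had 1458, 1437 and 1914 normalised counts in WT at 22 °C and 2 days against 4093, 4028 and 4388 at 27 °C, and it spanned 1.52 log2 units over the groups. CYP706A7 spanned 1.39, and AT5G42930, which spanned most of the 10, reached 2.63.

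In the rest of the family the changes with warmth went both ways. Without PME61, 60 of the 65 other genes had a value above 0 somewhere, and 35 passed the filter on low values at 2 days. In WT, 25 of these 35 were called between temperatures, 12 higher and 13 lower at 27 °C, which is 71.4% against 72.0% of all genes called (36.5% higher and 35.5% lower); the family's median was -0.13 and that of all genes 0.01. At 7 days 26 of 38 were called, 6 higher and 20 lower, against 57.4% of all genes (26.3% higher and 31.1% lower), with a median of -0.43 against -0.03. In the libraries labelled pif4-2, 25 were called at 2 days and 26 at 7 days, and in hda9-1 19 and 23, where 70.2%, 60.1%, 66.8% and 57.9% of all genes were called. Of the 34 family genes measured at both ages, 11 had a positive WT change at 2 days and a negative one at 7 days, as PME61 did, whether or not these passed the test. Of the others, 5 were positive at both ages, 14 negative at both and 4 negative and then positive. The same split was not counted over all genes, so the 11 are not read as a trait of the family.

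**Figure D4:**
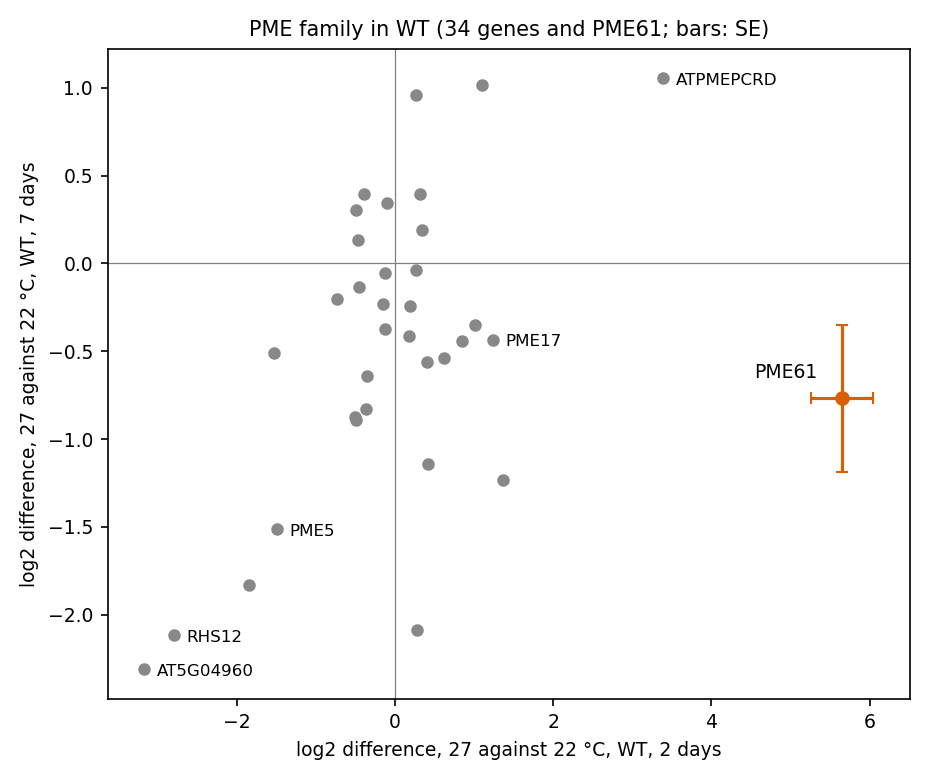
Log2 difference between 27 °C and 22 °C in WT at 2 days (horizontal) and 7 days (vertical) for 34 genes of the pectin methylesterase family and PME61, whose bars are 1 SE; each grey point is 1 gene. PME61 lies farthest right at 5.65 with -0.77 at 7 days, ATPMEPCRD is at 3.39 and 1.05, and RHS12 and AT5G04960 are at the lower left.

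After ATPMEPCRD and PME17, the family genes that rose most in warm WT at 2 days were AT3G27980 (log2 1.10, SE 0.21, limma adjusted p = 0.000193), AT1G05310 (1.01), AT3G49220 (0.62) and PME2 (0.42). AT3G49220 was among the more abundant, at 7350 ± 567 normalised counts at 27 °C against 4773 ± 489 at 22 °C. At the other end AT5G04960 fell by 3.17 (SE 0.60, adjusted p = 0.000172), from 1665 ± 392 to 227.9 ± 152, and RHS12, a gene named for its root-hair expression, fell by 2.80 (SE 0.47, adjusted p = 6.03e-05). AT5G51490 fell by 1.85, AT2G47550 by 1.54, PME5 by 1.49 and PMEPCRA by 0.73. PME5 went from 8836 ± 483 to 3144 ± 163 normalised counts.

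The root-hair genes COBL9 and EXPA7 moved with the genes that fell. COBL9, at 493 to 635.4 in WT at 22 °C and 48.3 to 105.4 at 27 °C, fell by 2.87 (SE 0.33, limma adjusted p = 9.9e-07), and EXPA7 fell by 2.74 (SE 0.45, adjusted p = 4.85e-05). ICL, the isocitrate lyase of seed-oil use, was higher at 27 °C by 0.60 (SE 0.18, adjusted p = 0.00707), and LHCB2.1 differed by -0.07 (SE 0.28, adjusted p = 0.831). At 22 °C and 2 days LHCB2.1 was higher in hda9-1 than in WT by 1.01 (SE 0.28, adjusted p = 0.0082). The part of these markers in the PME61 values was not tested.

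At 7 days warm WT seedlings had more ATPMEPCRD, AT3G27980 (log2 1.02, SE 0.16, limma adjusted p = 2.93e-05), AT3G43270 (0.40), PME31 (0.39) and PME3 (0.30). AT5G04960 again fell, by 2.31 (SE 0.45, adjusted p = 0.000279), as did RHS12 (by 2.12), AT5G19730 (by 2.09), AT5G51490 (by 1.83), PME5 (by 1.51) and AT5G20860 (by 1.23). PME5 went from 2340 ± 152 to 817.8 ± 25.3 normalised counts.

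Between genotypes, 16 of the 35 family genes were called between hda9-1 and WT at 22 °C and 2 days, 13 higher and 3 lower in hda9-1. Of all genes 45.7% were called there, a share near that of the family, with 24.8% higher and 20.9% lower. Leaving out the third hda9-1 library there left 9 family genes called, and leaving out the second WT library left 10. At 27 °C 8 of 35 were called, where 29.4% of all genes were, a share near that of the family; with a block for the replicate number, which pairs these 2 groups, 13 were, without the third WT and pif4-2 libraries 12, and without the second WT or the third hda9-1 library 3 and 1. The family genes called at both temperatures were AT5G64640, lower by -0.65 (SE 0.17, limma adjusted p = 0.00533 at 22 °C and 0.00913 at 27 °C), AT3G06830, higher by 0.54 and 0.53, AT3G10720, higher by 0.31 and 0.15, and AT5G20860. The 27 °C call of AT3G10720 was kept in 5 of 18 fits without 1 library (adjusted p up to 0.154). That of AT5G64640 was kept in 17 of 18 (up to 0.054) and that of AT5G20860 in 13 of 15 (up to 0.115), while the calls of AT3G06830 were kept in all 18. AT5G20860 was listed at 0 in all 3 WT libraries at 22 °C and at 5.67 ± 4.83 in hda9-1. Its call there was lost with a pseudocount of 8 (adjusted p = 0.0665), and its 27 °C call with DESeq2 (adjusted p = 0.0743). AT5G20860 passed the filter on low values at 2 days only through hda9-1 libraries, where it was high. In the 18 fits without 1 library it was tested in 15. Its calls at both temperatures are therefore not read as a result, although the counts above include it.

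A smaller response of hda9-1 than of WT at 2 days was called for 3 of the 35 other family genes, in a comparison that called 2.71% of all genes: ATPMEPCRD, given above, AT3G49220 by -0.71 (SE 0.13, limma adjusted p = 0.0156) and PME44 by -0.68 (SE 0.11, adjusted p = 0.00628). The calls of ATPMEPCRD and AT3G49220 were lost without single libraries of WT or hda9-1, with adjusted p up to 0.0604. Between the libraries labelled pif4-2 and WT at 2 days, 0 of 35 family genes were called by limma at either temperature or in the response; 2, 1 and 2 had an unadjusted p under 0.05, and edgeR and DESeq2 called 0.

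At 7 days 6 and 11 of 38 family genes were called between pif4-2 and WT at 22 °C and 27 °C, where 17.7% and 24.8% of all genes were. ATPMEPCRD was lower in pif4-2 at both, by -0.66 (SE 0.09, limma adjusted p = 5.69e-05) and -1.23 (SE 0.09, adjusted p = 2.08e-08). AT3G49220 and PME44 were lower at both too, by -0.45 and -0.42 and by -0.33 and -0.51, and AT5G19730 was higher by 0.51 and 0.96. The 22 °C count was 10 without the third pif4-2 library, and the 27 °C count was 6 without the second WT library and 7 without the third pif4-2 library. Between hda9-1 and WT 7 and 13 of 38 were called, against 20.0% and 34.3% of all genes, shares near those of the family. Among them were AT1G23200 (-1.37 and -0.63) and PME44 (-0.58 and -0.34), which were lower at both temperatures, and PMEPCRF (0.33 and 0.76) and AT1G05310 (0.54 and 0.28), which were higher. The 27 °C call of AT1G05310 was kept in 13 of 18 fits without 1 library (adjusted p up to 0.166) and was lost with edgeR (0.0609) and DESeq2 (0.067). The 22 °C call of PMEPCRF was kept in 15 of 18 (up to 0.065), and the 27 °C call of AT1G23200 in 17 of 18 (up to 0.0834). The hda9-1 counts were 4 at 22 °C without the second WT or the third hda9-1 library, and 8 at 27 °C without the first WT library.

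Genes that make, block, cut or sense pectin were read from lists drawn up with earlier results known. Of 12 genes of homogalacturonan synthesis, 11 were called in WT at 2 days, 2 higher and 9 lower at 27 °C, with a median of -0.42. Of all genes 72.0% were called there, 36.5% higher and 35.5% lower, with a median of 0.01. At 7 days 8 of 12 were called, all lower, with a median of -0.22, where 57.4% of all genes were called, 31.1% lower, and their median was -0.03. GAUT14, a galacturonosyltransferase, fell by 0.82 (SE 0.07, limma adjusted p = 9.66e-08) at 2 days and by 0.61 at 7 days. CGR3, a methyltransferase of homogalacturonan, fell by 0.58 and 0.54.

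Of 10 pectin methylesterase inhibitor genes tested, 5 were called at 2 days, 3 higher and 2 lower, and 5 at 7 days, 2 higher and 3 lower, against 72.0% and 57.4% of all genes called. AT1G62770 rose by 1.54 (SE 0.10, limma adjusted p = 3.93e-09) at 2 days, from 1091 ± 67.0 to 3190 ± 288 normalised counts, and by 2.07 at 7 days, and AT5G46960 fell by 1.29 at 2 days. PMEI2 rose by 1.70 at 7 days. Of 11 pectin-degrading genes tested, 8 were called at each age, 4 higher and 4 lower at 2 days and 2 higher and 6 lower at 7 days, again against 72.0% and 57.4% of all genes. The pectin lyase-like gene AT3G27400 fell by 1.96 (SE 0.13, adjusted p = 3.93e-09) at 2 days and the polygalacturonase gene ADPG1 by 1.53, and at 7 days AT1G48100 fell by 1.65 and AT4G24780 by 1.54.

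The 3 subtilases known to process pectin methylesterases had small changes. S1P rose by 0.41 at 2 days (SE 0.06, limma adjusted p = 8.89e-06) and by 0.17 at 7 days. SBT3.5, described as cutting PME17, rose by 0.25 at 2 days (SE 0.07, adjusted p = 0.00463) and fell by 0.42 at 7 days (SE 0.09, adjusted p = 0.00109). Of the pectin sensors, FER, the receptor kinase FERONIA, rose by 0.55 at 2 days (SE 0.06, adjusted p = 1.14e-06), RLP44 fell by 0.88 at 2 days and by 0.48 at 7 days, and the wall-associated kinase gene WAK2 fell by 0.66 at 7 days. FER was also higher in warm WT at 7 days, 1.27-fold, at 10808 ± 155 normalised counts against 8526 ± 450.

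The genes beside PME61 on the chromosome had other patterns of level. AT3G59000 was between 149.4 and 152.2 normalised counts in WT at 22 °C and 2 days and between 171.5 and 176.3 at 27 °C (log2 0.20, SE 0.08, limma adjusted p = 0.0378). AT3G59020 had 3036 ± 174 and 3135 ± 216 (log2 0.05, SE 0.07, adjusted p = 0.581). IPMI1 had 16.7 ± 1.48 and 9.73 ± 2.84 (log2 -0.76, SE 0.36, adjusted p = 0.07). TT12 had at most 2.31 normalised counts in any library.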

How the data were processed

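RNA was sequenced from 36 libraries with TruSeq kits as single 50 bp reads, per the labels' protocols. FastQC, TopHat2, Bowtie, HTSeq, DESeq and the build TAIR10 are named in the submitters' processing notes. The deposited values are a signal per gene: HTSeq-type read counts divided by 1 size factor per library by the authors, and whole reads were recovered for all values within 0.01. Strand setting is not given in the sources used here. Rows of unassigned reads (for example 6.05% to 8.42% not unique) were left out.

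Values were analysed as log2(value + 1) with limma 3.58.1 (trend, eBayes; R 4.3.3) for genes with at least 10 in at least 3 libraries, 18 libraries per fit (21164 genes at 2 days, 21320 at 7 days) or all 36 for changes with age (21879 genes), adjusted over all genes by Benjamini-Hochberg and called under 0.05. The scripts were tested on simulated data. Alternatives were a pseudocount of 8, no filter, a replicate block, TMM scaling, count models on the recovered reads (edgeR 4.0.16, DESeq2 1.42.0), only the compared groups, and leaving out libraries. Same-numbered libraries deviated together in all 3 pairs, with every correlation over 0.1, in 10 of 30 pairs of groups, for example WT and hda9-1 at 27 °C and 2 days (lowest 0.211), and did not in WT and hda9-1 at 22 °C and 2 days (lowest -0.0972); pairing was read from the values, since the labels do not state it. The p-values measure the spread between pooled libraries. PME61 and the gene lists were chosen with earlier results of these data known. Tests of PME61 had been planned for all genotype comparisons. They are given without p-values, because the values at both ages entered the choice of the gene. Named genes were, per age, the 6 called family genes with the largest WT change in each direction and a mean of at least 50, up to 2 of each other list, up to 4 family genes called at both temperatures in a mutant, the 10 genes most like PME61, its close homologues and its neighbours. AT5G20860 also counts as a close homologue, with 46.3% identity.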

Additional observations from a re-analysis of the deposited data

Results flagged for a closer look

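In the fit across all genes, the response of PME61 to warmth at 2 days differed between hda9-1 and the other genotypes. The gene was chosen for its 2-day rise, so this is a description with no test. It was smaller in hda9-1 than in WT by -2.86 on the log2 scale and smaller than in the libraries labelled pif4-2 by -3.84, and in each case the level at 22 °C was higher in hda9-1 while the 27 °C libraries of the genotypes overlapped.

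The response also went opposite ways at the 2 ages, upward in every 2-day library set and downward in every 7-day set. The 7-day response minus the 2-day response was -6.42 in WT, -9.35 in pif4-2 and -4.56 in hda9-1. It was -6.92 in WT and -9.09 in pif4-2 without the third WT and pif4-2 libraries at 2 days, and without the third pif4-2 library at 22 °C and 7 days it was -9.40 in pif4-2. This difference was not tested, because the gene was chosen for it, and its size in WT and pif4-2 rests on 6 reads and 1 read at 22 °C and 2 days.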

How the results depend on the processing

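With a pseudocount of 8 the log2 rises at 2 days were 3.61 in WT and 3.94 in pif4-2, and the 7-day changes -1.59 in pif4-2 and -0.90 in hda9-1. The changes with age were then 1.17 (WT, 22 °C), -2.92 (WT, 27 °C), 2.03 (pif4-2, 22 °C), -3.50 (pif4-2, 27 °C) and -3.27 (hda9-1, 27 °C). Those of the response with age were -4.09, -5.53 and -3.22 in WT, pif4-2 and hda9-1, and hda9-1 against pif4-2 at 22 °C and 7 days was -0.66. With edgeR and DESeq2 the pif4-2 rise was 8.43 and 8.87 and its change with age at 22 °C 6.19 and 6.66. The change of the response was -6.93 and -7.07 in WT and -11.49 and -12.01 in pif4-2. For hda9-1 against WT at 22 °C and 7 days the sign changed, to -0.094 and -0.078. With edgeR hda9-1 against pif4-2 at 22 °C and 7 days was -0.95. Without the third WT and pif4-2 libraries at 2 days, chosen after seeing the data, the WT rise was 6.15 and pif4-2 against WT at 27 °C -0.012. Without each library in turn, the WT rise at 2 days ran from 5.11 to 6.11, the WT change with age at 22 °C from 2.15 to 3.15 and that of the response from -6.88 to -5.88. Genotype differences ran from -0.21 to 0.12 (hda9-1 against WT, 27 °C, 2 days), -3.32 to -2.31 (hda9-1 response against WT, 2 days), -1.33 to -0.84 (pif4-2 against WT, 27 °C, 7 days), -0.18 to 0.42 and -1.37 to -0.60 (hda9-1 against WT, 22 °C and 27 °C, 7 days) and -0.36 to 0.41 (hda9-1 against pif4-2, 27 °C, 7 days). With a pseudocount of 8, hda9-1 at 22 °C and 2 days differed from WT by 1.22 and from pif4-2 by 1.41. Its response at 2 days then differed by -1.28 from that of WT and by -1.61 from that of pif4-2. The cause was not tested. The replicate block leaves the log2 differences unchanged by design, because every replicate number occurs in every group. Family counts were 1 for pif4-2 against WT at 22 °C and 2 days with no filter, 2 for hda9-1 against WT at 27 °C and 2 days with only the compared groups and 13 with the replicate block, and 10 for pif4-2 against WT at 22 °C and 7 days without the third pif4-2 library. Without each library in turn they ran from 9 to 18 and from 1 to 9 for hda9-1 against WT at 2 days (22 °C and 27 °C), from 6 to 10 and from 6 to 12 for pif4-2 against WT at 7 days, and from 4 to 9 and from 8 to 16 for hda9-1 against WT at 7 days.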
